A study of Mus musculus with 6 samples.

Results

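The S100 genes encode a family of small calcium-binding proteins, and 10 of them were followed here among the 24421 genes of the deposited table: S100b, S100a1, S100a4, S100a6, S100a8, S100a9, S100a10, S100a11, S100a13 and S100a16. Members were chosen by symbol, and all 10 symbols were found. The libraries came from sorted CD51+ cortical astrocytes of mice, CD51 being the integrin alpha V chain. CD51-Flp mice had received a viral vector, AAV-GFAP-FSF-hM3D-mCherry, in which the GFAP promoter drives the Gq-coupled designer receptor hM3D and mCherry after Flp recombination. Both arms carried this vector, were injected 2 times per day from postnatal day 7 to day 21, and were sorted for mCherry on day 21. The CNO group (CNO 1, 2 and 3) was given clozapine-N-oxide, the ligand of hM3D, and the saline group (saline 3, 4 and 5) was given saline, with 3 libraries each. No group received CNO in the absence of hM3D, so other effects of CNO and receptor activation cannot be told apart. The labels do not say whether a library came from 1 animal or a pool, and p-values measure the spread between these libraries only, which may be technical.

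An S100 protein is usually a dimer whose subunits each hold a pair of EF hands, the helix-loop-helix folds that bind calcium. Binding of calcium opens a hydrophobic surface that docks to target proteins such as annexins, cytoskeletal proteins and enzymes, and some members are also secreted and act on receptors such as RAGE and TLR4. In brain, S100b is a classical marker of astrocytes and is also made by cells of the oligodendrocyte lineage, while S100a8 and S100a9 form calprotectin, the abundant calcium-binding complex of neutrophils. S100a4, S100a6, S100a10 and S100a11 are known from fibroblasts, vascular cells and reactive glia.

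The CNO libraries held between 3908076 (CNO 1) and 19224186 (CNO 2) recovered reads, and the saline libraries 12010901 to 19052161. Levels are normalized counts, which are read counts divided by 1 size factor per library. On this scale 1 read of CNO 1 equals 4.23, and 1 read of any of the other 5 libraries 0.503 to 0.970. Low transcripts were missing more often from the CNO libraries. Between means of 10 and 50 there were 2756 genes, of which CNO 1, 2 and 3 had no read for 79.6%, 30.3% and 58.9%, and the saline libraries for 12.9% to 14.4%. The 13 astrocyte markers all had reads in both groups, and their summed level ran from 170140 to 598740 in CNO and from 191800 to 292590 in saline. All 11 oligodendrocyte markers and all 11 microglia and macrophage markers had reads too, so the S100 values cannot be assigned to astrocytes alone. In such bulk libraries, fewer cells of a type and less RNA per cell cannot be told apart.

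S100b was by far the most abundant member and the member with the clearest difference between groups. On the scale of normalized counts, its mean in CNO was 4.64 times that in saline. Its level was 3630, 5826 and 4890.5 normalized counts in CNO 1, 2 and 3, and 1005, 877 and 1212 in saline 3, 4 and 5. Every CNO library lay above every saline library, and even CNO 1, the shallowest library, held 859 S100b reads. The means were 4782 ± 1102 in CNO and 1031 ± 169 in saline (SD, n = 3 each). Per 1000000 reads of the library and kilobase of exon, the ratio was smaller, with means of 208 in CNO and 71.8 in saline. The log2 fold change was 2.20 ± 0.48 (SE), with an unadjusted p of 7.5e-04 that ranked 17 among 13028 tested genes. It did not pass the threshold in limma (adjusted p = 0.488, Benjamini-Hochberg over all tested genes), where 0.0154% of genes were called. DESeq2, run on the recovered reads, called S100b as higher (adjusted p = 0.0204), while 0.53% of genes were called higher and 1.38% lower in that test. The other 16 alternatives to the limma fit gave adjusted p-values from 0.11 to 0.814 and log2 fold changes from 1.64 to 2.38. The size of the difference depended on the scaling, with 1.64 under quantile scaling and 2.15 under TMM scaling.

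Over the 6 libraries, the ratio of S100b to the myelin gene Mbp varied less than its ratio to the summed astrocyte markers. Mbp ranked 1 by p among all genes of the limma fit, and the ratio was added after the data were seen. Mbp encodes myelin basic protein, and it stood at 1585700 to 2963000 normalized counts in CNO and 451370 to 604100 in saline. For every 1000 normalized counts of Mbp, the S100b count was 2.29, 1.97 and 1.80 in CNO 1, 2 and 3, and 2.23, 1.76 and 2.01 in saline 3, 4 and 5. The groups overlapped throughout, and the ratio averaged 2.02 ± 0.25 in CNO and 2.0 ± 0.23 in saline (SD, n = 3 each, exact permutation p = 0.8, 2-sided on log2 ratios). The log2 difference of this ratio was 0.01, and it ran from -0.08 to 0.09 as each library was left out. Against the summed level of the 11 oligodendrocyte markers, which was 1841000 to 3487200 in CNO and 525350 to 752180 in saline, the ratio averaged 1.74 ± 0.21 and 1.67 ± 0.22 per 1000 (exact permutation p = 0.6). Mbp supplied most of that sum, so these ratios are not independent of each other.

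Against the astrocyte markers the S100b ratio did separate the groups. Per 1000 normalized counts of the 13 astrocyte markers, S100b stood at 6.06, 16.3 and 28.7 in CNO 1, 2 and 3,, against 3.44, 4.57 and 5.87 in saline 3, 4 and 5. CNO 1 lay just above saline 5, and the other CNO libraries lay well above. The log2 difference was 1.65 (exact permutation p = 0.1, the smallest that 3 against 3 libraries allow), and it ran from 1.14 to 2.26 as each library was left out. Relative to the 11 microglia and macrophage markers, S100b averaged 37.3 ± 24.1 per 1000 in CNO and 8.55 ± 1.06 in saline, again without overlap (exact permutation p = 0.1). Relative to the 6 oligodendrocyte precursor markers the groups overlapped, with a log2 difference of 1.08 (exact permutation p = 0.2). Over the 5 ratios the adjusted p-values ran from 0.25 to 0.8. Slc1a2 supplied much of the astrocyte sum, 292340 of 598740 in CNO 1 and 114910 of 170140 in CNO 3. The astrocyte list itself had a median log2 fold change of 0.42, with 12 above and 1 below 0 and 0 of 13 members called in limma. The oligodendrocyte list had a median of 1.70, with 8 above and 3 below 0 and 2 of 11 called. At an unadjusted p under 0.05 in limma, 8 oligodendrocyte, 3 microglia and macrophage, 1 precursor and 0 astrocyte markers were higher, beside 2.28% of all tested genes. The part of these cell types in the S100b difference was not tested.

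**Figure D1:**
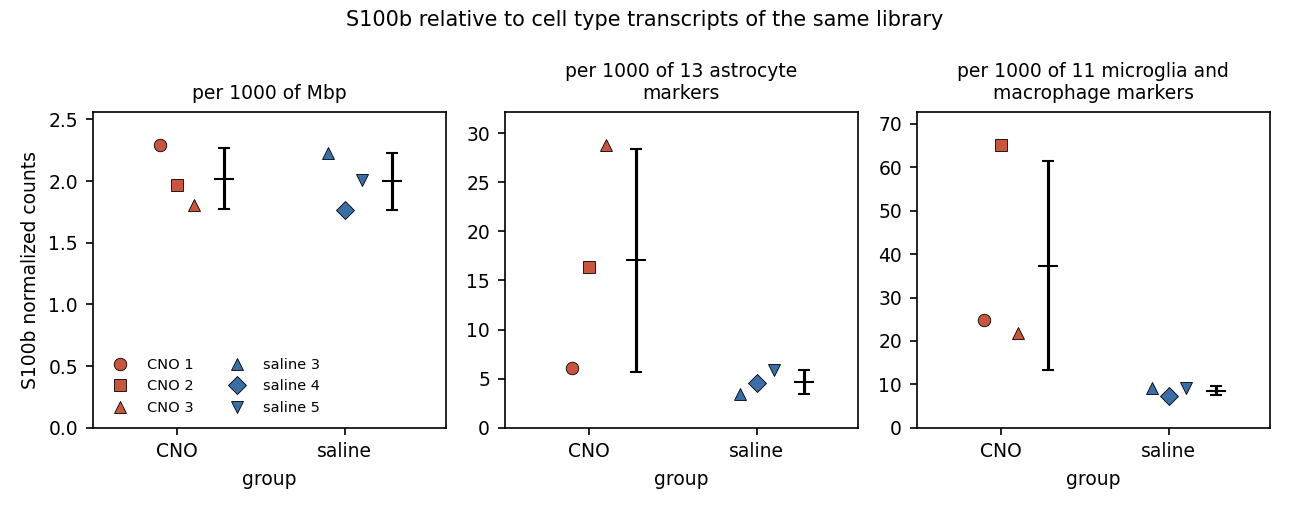
S100b normalized counts per 1000 normalized counts of Mbp, of 13 summed astrocyte markers and of 11 summed microglia and macrophage markers (y axes, linear from 0) in the CNO and saline libraries (x axis). Points are libraries and bars are mean ± SD of 3; the Mbp ratio lies between 1.76 and 2.29 in all 6 libraries, while the CNO libraries lie above the saline libraries in the other panels.

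Over the 6 libraries, the genes whose centred profile lay closest to that of S100b were Mobp, Mbp, Trak2, Agap1, Plekhb1 and BC005624, out of 12258 genes searched. Likeness was the mean absolute difference of log2 values after each gene was centred on its own mean, a description with no test. It was 0.11 for Mobp, another protein of compact myelin, 0.12 for Mbp and 0.19 for Trak2, a kinesin adaptor, against a median of 2.03 over all genes searched. That median covers genes at all levels above the filter, so it is no baseline for a gene as abundant as S100b. Of the genes searched, 4 lay within 0.25 of S100b and 1711 within 1. Mobp and Mbp ranked 2 and 1 by p between the groups in limma, so their likeness to S100b includes the shared group difference. Mobp ranged from 127220 to 222530 in CNO and from 28199 to 41040 in saline, also without overlap.

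S100b lies apart from the other members, on chromosome 10 at 76253853 to 76261159 on the plus strand (GRCm38, GENCODE), with 1484 bases of exon. The gene Dip2a on the minus strand overlaps 1731 bases of it, and exons of Dip2a overlap 0 exon bases of S100b. Overlap of Dip2a introns with S100b exons was not counted. Dip2a ran at 67.6, 1204 and 513 in CNO 1, 2 and 3, against 426, 331 and 578 in saline, overlapping between groups. The bases just upstream of the RefSeq start of S100b are shown because S100b carries the main difference, beside those of S100a16, which was read in every library at a like level in both groups. Both are from RefSeq on GRCm38.p6, plus strand, chr10:76253586-76253835 and chr3:90537004-90537253, and capitals mark the E-box CANNTG, the site of basic helix-loop-helix factors.
S100b: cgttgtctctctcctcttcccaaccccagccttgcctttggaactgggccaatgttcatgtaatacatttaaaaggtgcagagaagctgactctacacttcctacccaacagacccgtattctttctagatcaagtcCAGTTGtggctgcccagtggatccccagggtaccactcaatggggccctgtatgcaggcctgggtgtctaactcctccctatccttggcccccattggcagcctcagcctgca
S100a16: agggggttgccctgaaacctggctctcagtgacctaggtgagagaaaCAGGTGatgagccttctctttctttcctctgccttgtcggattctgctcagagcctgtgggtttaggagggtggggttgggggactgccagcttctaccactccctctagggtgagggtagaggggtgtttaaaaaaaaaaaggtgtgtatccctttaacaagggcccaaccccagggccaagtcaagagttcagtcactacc

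Each stretch held 1 E-box, at -113 in S100b and -203 in S100a16 counted from the start, and 66.2% of the 32851 RefSeq promoter windows of the same 250 bases held at least 1. Searched on both strands, the TATA box TATAAA, the AP-1 site TGANTCA, the CRE core TGACG and the SOX core AACAAT were found in neither of these 2 stretches, and 12.4%, 6.75%, 17.8% and 9.42% of all windows held them. In all, 9 of the 10 members had a promoter window, and S100a16 had a further one at 90540896 to 90541195, with 4 E-boxes, an AP-1 site at -192 and a SOX core at -96. A TATA box stood at -31 in S100a4 and at -30 in S100a8, S100a4 held 1 SOX core, S100a13 held 1 CRE core and S100a11 held 2 AP-1 sites. A match is a description of letters and not a binding site.

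The other 9 members lie on chromosome 3. S100a1, S100a13, S100a16, S100a4, S100a6, S100a8 and S100a9 stand in a cluster at 90511034 to 90695721, and S100a11 (93520488 to 93526287) and S100a10 (93555080 to 93564643) lie 2.82 Mb further on. Their read counts by library are plotted in gene order.

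**Figure D2:**
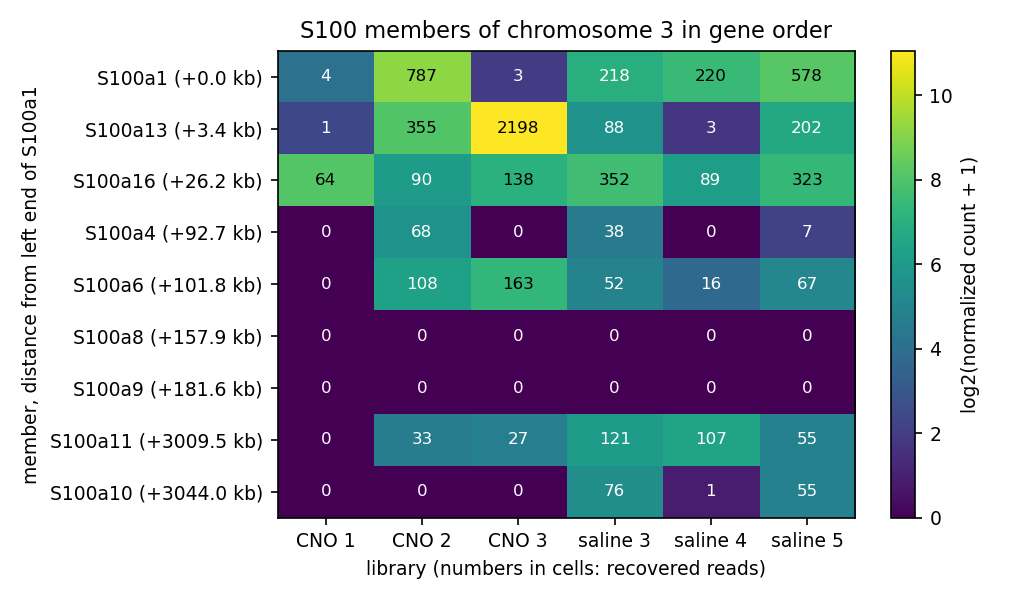
The 9 members of chromosome 3 in gene order (y axis, with the distance from the left end of S100a1) by library (x axis). Colour is log2(normalized count + 1) and the number in each cell is the recovered reads; S100a13 reaches 2198 reads in CNO 3, where S100a1 has 3.

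S100a1, a calcium sensor best known from muscle, where it acts on calcium release and uptake, was steady in saline and uneven in CNO. It stood at 16.9, 582 and 2.91 normalized counts in CNO 1, 2 and 3, which were 4, 787 and 3 reads,, against 124, 176 and 291 in saline 3, 4 and 5. CNO 2 was the highest of all libraries, and CNO 1 and CNO 3 were the lowest. The group means were close, 201 ± 331 and 197 ± 85.6 (SD, n = 3 each), while the log2 fold change, a difference of mean log2 levels, was -2.43 ± 1.95 (SE, limma adjusted p = 0.665). That log2 fold change was 0.03 in DESeq2 (adjusted p = 0.998), -0.86 without CNO 3 and -4.48 without CNO 2.

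S100a13, which takes part in the non-classical release of FGF1, is transcribed away from S100a1 on the opposite strand, and 42 bases separate the GENCODE gene ends. In RefSeq the genes overlap by 98 bases, and without stated strand handling reads there cannot be assigned. S100a13 stood at 4.23, 263 and 2132 in CNO 1, 2 and 3, a span from 1 read to 2198 reads,, against 49.9, 2.40 and 102 in saline 3, 4 and 5. The lowest saline library held 3 reads, so both groups were spread widely and overlapped. Its log2 fold change of 2.46 ± 2.37 (SE, limma adjusted p = 0.705) exceeded that of S100b, with a far larger error. Without CNO 3 it was 0.51, and without CNO 1 it was 4.85, neither past the threshold in limma (adjusted p = 0.93 and 0.369). Without saline 4 it was 0.99, and in DESeq2 it was 3.96 (unadjusted p = 0.0117, adjusted p = 0.184).

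The profiles of this neighbouring pair diverged most in CNO 3, where S100a13 was at its highest and S100a1 at its lowest. Genes with profiles closest to S100a13 were Flt4, Rhoc, Rlbp1, Fam57b, Prg4 and Scn3b, at a mean absolute log2 difference of 0.48 to 0.74. All 6 were at 0 in CNO 1 and highest in CNO 3. Those closest to S100a1 were BC002163, Pde6d, Rangap1, Tigar, Eif2d and Wbp1, at 0.26 to 0.41, all highest in CNO 2 and lowest in CNO 3. The S100b list, the S100a13 list and the S100a1 list had no gene in common, though lists of the 6 genes nearest to such unlike profiles could hardly share one.

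S100a16, a widely expressed member, was read in all 6 libraries with no visible shift. It stood at 270, 66.6 and 134 in CNO 1, 2 and 3, against 200, 71.2 and 163 in saline 3, 4 and 5. The ranges covered each other, with means of 157 ± 104 and 144 ± 66.0 (SD, n = 3 each). The log2 fold change was 0.02 ± 1.30 (SE, limma adjusted p = 0.998), and its sign turned with TMM scaling, array weights, limma-voom and edgeR. The error leaves room for a change of more than 1 log2 unit either way.

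The members known from fibroblasts, vessels and reactive glia were low. S100a6, or calcyclin, stood at 0, 79.9 and 158 in CNO 1, 2 and 3, against 29.5, 12.8 and 33.7 in saline 3, 4 and 5. CNO 2 and CNO 3 were above all saline libraries and CNO 1 was below them, and the log2 fold change was -0.06 ± 2.32 (SE, limma adjusted p = 0.995). It was 2.21 without CNO 1, 2.58 with quantile scaling and 1.66 in DESeq2, none past the threshold (adjusted p = 0.582, 0.796 and 0.815). S100a4, also called fibroblast-specific protein and metastasin, had reads in CNO 2 (50.3), saline 3 (21.5) and saline 5 (3.52) and none in CNO 1, CNO 3 and saline 4. Its log2 fold change was -0.33 ± 2.03 (SE, limma adjusted p = 0.960), although its ratio of means was 2.01, and its sign turned in 9 of 15 alternatives. GENCODE places the gene Gm42674 across S100a4 on the same strand, so some of these reads may be shared. The 6 fibroblast markers all had reads in both groups, with a summed level of 1179 to 4527 in CNO and 1068 to 1258 in saline. By log2 fold change 4 of the 6 lay below 0, with a median of -1.24. Their part in the S100a4 and S100a6 values was not tested.

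S100a10 and S100a11, the neighbouring pair at the far end, were the members below saline in every CNO library. S100a10, or p11, the partner of annexin A2, had 0 reads in CNO 1, 2 and 3 and 43.1, 0.800 and 27.7 normalized counts in saline 3, 4 and 5, which were 76, 1 and 55 reads. A floor of 3 reads in each CNO library was 5.94 normalized counts on average, and the saline mean of 23.9 ± 21.4 (SD, n = 3) was 4.02 times that. This ratio allows for read counting in CNO only and not for the spread of saline, where saline 4 lay below the floor. The ratio was 2.40 without saline 3 and 9.3 without CNO 1. The limma test did not call S100a10 (adjusted p = 0.523, unadjusted p = 0.0485). It was tested only because its saline values lifted its mean to 11.9, just over the minimum of 10. S100a11, which binds annexin A1, stood at 0, 24.4 and 26.2 in CNO 1, 2 and 3, against 68.6, 85.6 and 27.7 in saline 3, 4 and 5. CNO 3 and saline 5 stood almost level, and the log2 fold change was -2.66 ± 2.11 (SE, limma adjusted p = 0.664), -1.08 without CNO 1 and -0.06 with quantile scaling (adjusted p = 0.997). For S100a10 the log2 fold change of -3.72 ± 1.68 (SE) likewise shrank to -0.57 with quantile scaling (adjusted p = 0.957).

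The values of both genes sit beside the general loss of low transcripts in the CNO libraries given above, whose part was not tested. The 6 endothelial markers, from cells that also express S100a10 and S100a11, summed to 186 to 5123 in CNO and 467 to 1273 in saline. The highest sum was that of CNO 3, while 5 of the 6 had log2 fold changes below 0, with a median of -1.16. All 6 had reads in both groups, and their part was not tested either.

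S100a8 and S100a9 were at 0 reads in all 6 libraries. A count of 0 allows up to 3 reads, or 0.768 RPM (reads per 1000000 reads of the library) in CNO 1 and 0.156 to 0.25 RPM in the other libraries, for counting error only. The neutrophil markers were mostly missing as well. Of the 13 that were in the table, 10 were at 0 in every library, among them Camp, Ltf, Retnlg, Cxcr2, Mmp8, Elane and Mpo, and Ngp was at 0 in all CNO libraries and had a single read in saline 3. Csf3r, which microglia also express, made up nearly the whole sum of this list, 330 to 667 in CNO and 714 to 898 in saline, apart from Mmp9 at 481 in CNO 3.

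**Figure D3:**
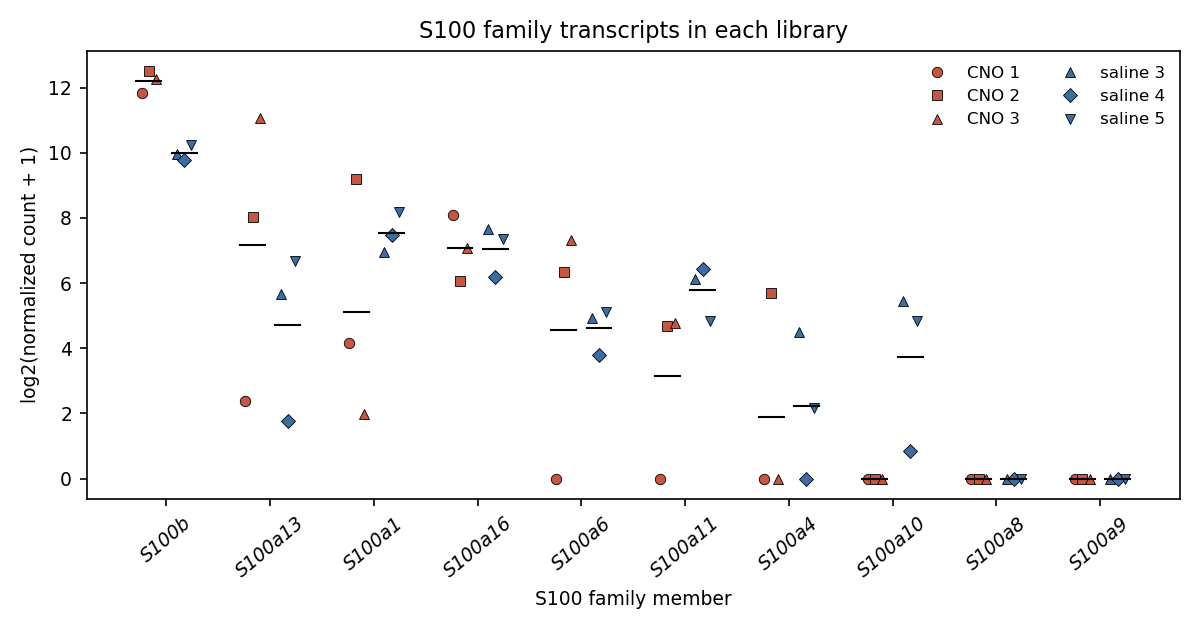
Level of each of the 10 members, as log2(normalized count + 1) on the y axis, in the 3 CNO libraries (red) and the 3 saline libraries (blue), with members on the x axis by falling mean level. Points are libraries and black bars are group means of the log2 values; S100b is the member in which CNO lies clear above saline, and S100a8 and S100a9 are at 0 throughout.

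Of the 10 members, 8 reached the mean of 10 normalized counts needed for the test, from S100a10 at 11.9 and S100a4 at 12.6 upward, and the 2 below it were S100a8 and S100a9. In limma 0 of the 8 were called, beside 0.0154% of all tested genes, with edgeR and limma-voom also at 0 of 8 and DESeq2 at 1 of 8. At an unadjusted p under 0.05 in limma, 1 member was higher (S100b) and 1 lower (S100a10), beside 2.28% and 7.25% of all tested genes. S100a10 entered the test through its saline values alone and lay apart from saline 4 by 1 read, so nothing is read from its place in these counts. The groups did not overlap for 1 member that was higher (S100b, against 4.57% of all tested genes) and 2 that were lower (S100a10 and S100a11, against 12.5%). The median log2 fold change of the 8 was -0.20, with 3 above and 5 below 0, beside -0.89 over all 13028 tested genes. That general median was 0.004 in DESeq2 and -0.08 with quantile scaling, where the 8 had medians of 0.56 and 1.14. Relative to the general median in limma, S100b stood at 3.09, S100a13 at 3.34, S100a16 at 0.91, S100a6 at 0.83 and S100a4 at 0.56. S100a1 stood at -1.55, S100a11 at -1.77 and S100a10 at -2.83. The general median was -0.57 over genes with a mean of at least 50, so it depends on level and need not apply to S100b.

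**Figure D4:**
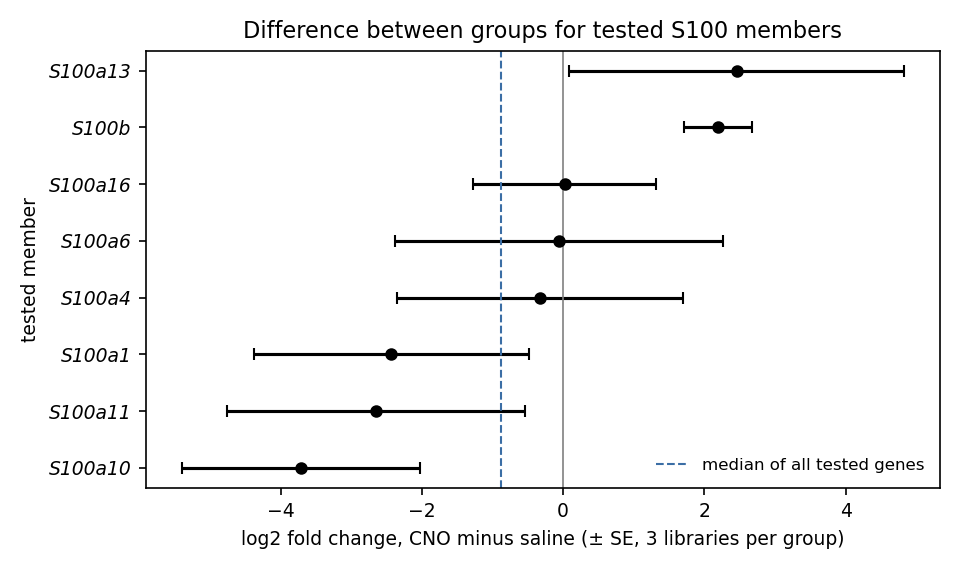
Log2 fold change (x axis, CNO minus saline, limma, ± SE, 3 libraries per group) of the 8 tested members (y axis). The dashed line marks the median of all tested genes at -0.89; S100b at 2.20 has the shortest error bar, and S100a13 at 2.46 a far longer one.

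Members other than S100b varied far more among CNO libraries than among saline libraries, as did most tested genes. Their log2 levels had a median SD of 3.28 in CNO and 0.84 in saline, and 6 of these 7 members were more spread in CNO. Over all tested genes the median SD was 2.15 and 0.81, and 80.6% were more spread in CNO. S100b, with 859 to 7874 reads in the CNO libraries, had an SD of 0.34 in CNO and 0.23 in saline. S100a16 had 1.0 and 0.78. S100a10, at 0 in all CNO libraries, was the member less spread there.

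Per length, S100b remained the leading member. In RPM per kilobase of exon, it stood at 208 ± 64.4 in CNO and 71.8 ± 12.1 in saline (SD, n = 3 each). In saline it was followed by S100a1 at 29.4 ± 13.1, and the ranges of these 2 members did not overlap. S100a11 (12.2 ± 6.01), S100a16 (9.20 ± 4.12) and S100a13 (7.42 ± 7.25) came next, each overlapping with its neighbour in the order, and S100a1 lay clear of S100a11. S100a10, S100a6 and S100a4 averaged 2.02, 1.91 and 1.46 with overlapping ranges. In CNO the order was S100b, S100a13 (68.6 ± 97.1), S100a1 (20.2 ± 33.6), S100a16 (6.0 ± 3.72), S100a6 (3.69 ± 3.50), S100a11 (2.15 ± 1.87) and S100a4 (2.02 ± 3.50), and every neighbouring pair overlapped.

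Summed over the 10 members, the family took 237, 485 and 443 RPM in CNO 1, 2 and 3 and 156, 128 and 194 in saline 3, 4 and 5. S100b supplied 66.6% to 92.6% of these reads in CNO and 65.2% to 71.5% in saline. The number of members with a read was 4, 7 and 6 in CNO 1, 2 and 3 and 8, 7 and 8 in saline 3, 4 and 5. Of the 6 further S100 genes listed, S100a3, S100a5, S100a7a and S100z were at 0 in every library. S100a14 (63 reads) and S100g (19 reads) were read in saline 3 and in no other library. S100g lies across Ctps2 on the opposite strand. S100a2, picked after its values were seen, had 2, 2 and 3 reads in saline 3, 4 and 5 and 0 in the CNO libraries, at or under the floor of 3 reads.

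Genes whose products bind S100 proteins gave 0 calls in limma among the 14 of 16 that were tested, with 7 above and 7 below 0 and a median log2 fold change of 0.05. At an unadjusted p under 0.05, 1 of the 14 was lower in limma (Anxa6), near the 7.25% of all tested genes. edgeR, limma-voom and DESeq2 also called 0 of the 14. The 3 receptors differed in level. Ager, which encodes RAGE, had 11 reads each in saline 3 and saline 4 and 0 in the other 4 libraries. Tlr4, a receptor of S100a8 and S100a9, stood at 63.4, 818 and 3659 in CNO 1, 2 and 3, against 1286, 1277 and 1241 in saline 3, 4 and 5, with a log2 fold change of -1.13 ± 1.18 (SE, limma adjusted p = 0.723) that turned to 0.19 in edgeR and 0.26 in DESeq2, and to 0.45 without CNO 1. The saline libraries were nearly equal and the CNO libraries lay on both sides of them. Bsg, or basigin, a receptor of S100a9, ran from 964 to 4396 in CNO and from 669 to 1444 in saline.

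Among the annexins, membrane-binding proteins that S100 dimers bridge, Anxa6 had the largest difference. Anxa6 stood at 0, 28.1 and 63.1 in CNO 1, 2 and 3, against 352, 513 and 374 in saline 3, 4 and 5. The groups lay far apart, but the log2 fold change of -5.05 ± 1.88 (SE) did not pass in limma (adjusted p = 0.488), and it was -3.24 without CNO 1. Anxa2, the partner of S100a10, stood at 0, 11.8 and 203 in CNO 1, 2 and 3, against 9.07, 0 and 33.7 in saline 3, 4 and 5, with a log2 fold change of 0.97 ± 2.38 (SE, limma adjusted p = 0.885) that turned to -0.98 without CNO 3 and -0.44 without saline 4. Anxa2 thus had reads in 2 CNO libraries in which S100a10 had none. Anxa5 was higher in every CNO library, at 3347, 919 and 925 against 770, 897 and 887 in saline 3, 4 and 5. CNO 1 carried this difference, since the log2 fold change of 0.74 ± 0.68 (SE, limma adjusted p = 0.691) was 0.12 without it.

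Myh9, the non-muscle myosin heavy chain that S100a4 binds, was lower in every CNO library, at 444, 980 and 991 against 1774, 1773 and 1686 in saline 3, 4 and 5. Its log2 fold change was -1.21 ± 0.61 (SE, limma adjusted p = 0.550). Fgf1, the cargo of S100a13, was level, at 1007 to 1250.4 in CNO and 691 to 1609 in saline, and it did not follow the wide swings of S100a13.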

How the data were processed

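The data are 6 libraries of sorted astrocytes (3 CNO, 3 saline), with 10 ng of RNA input per library per the labels' protocols. The deposited table holds a signal, read counts per gene divided by 1 size factor per library by the authors. The submitters' processing notes name Trimmomatic 0.4, FastQC 0.10.1, MultiQC 0.9, STAR 2.5.0a, DESeq2 1.20.0 and mm10. Which counter, gene annotation and strand setting were used is not given in the sources used here. Dividing by the smallest step of each library gave whole reads for 100% of values (tolerance 1e-06).

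Each gene with a mean of at least 10 was tested with limma 3.58.1 in R 4.3.3 on log2(normalized count + 1) with a variance trend, 2-sided, with Benjamini-Hochberg adjustment over all 13028 tested genes at 0.05. Log2 fold changes of low genes on this scale differed from those of DESeq2 in both directions. S100a10 was at -3.72 in limma and -6.48 in DESeq2, while S100a11 was at -2.66 and -1.81. DESeq2 1.42.0, edgeR 4.0.16 and limma-voom used the recovered reads. The method was tested on simulated data. The simulated reads had the same dispersion in both groups, unlike these libraries, so that test does not cover their unequal spread. Ratios of S100b to marker sums were compared by exact permutation tests (scipy 1.17.1). Exon lengths and coordinates are from GENCODE mouse release 21 (GRCm38, as mm10), and promoters from RefSeq. Genes named were the 10 members, listed partners and, for S100b and the 2 next most abundant members, the 6 tested genes of nearest profile. Members and lists were chosen with earlier results of these data known. Alternatives were other pseudocounts, filters, scalings, weights and tools, and each library left out with the filter recomputed. Ratios and their repeats were added after the data were seen. Reads carry no molecular identifiers, so floors cover counting error only. Figures used matplotlib 3.10.9.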

Additional observations from a re-analysis of the deposited data

How the results depend on the processing

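The count of S100 members called stayed at 0 in every alternative except DESeq2, which called 1 (S100b), and it was 0 to 0 as each library was left out. Over all genes, 2 were called in limma, 11 with array weights, 16 in limma-voom, 249 in DESeq2, and 0 with a mean of at least 50, with quantile scaling, without a variance trend and in edgeR. Leaving out each library gave 0 to 2. The log2 fold changes of S100b, S100a13, Anxa6, Myh9 and Anxa5 kept their sign in all 17 alternatives. That of S100a11 did so in the 16 that gave a value, though it shrank to -0.06 with quantile scaling. For S100a10 it was below 0 in the 14 that gave a value, and it shrank to -0.57 with quantile scaling. With 0 reads of S100a10 in every CNO library this sign was largely fixed in advance, so nothing is read from it. Signs turned for S100a1 in DESeq2 (0.033), for S100a4 with a pseudocount of 8 (0.15), quantile scaling (1.81), array weights (0.72), limma-voom (0.17), edgeR (0.94) and DESeq2 (1.01), for S100a6 under the same settings in that order (0.61, 2.58, 0.98, 0.37, 1.58 and 1.66), for S100a16 with TMM scaling (-0.026), array weights (-0.27), limma-voom (-0.38) and edgeR (-0.057), and for Tlr4 in edgeR (0.19) and DESeq2 (0.26). With each library left out, values ran from -1.44 to 0.81 for S100a4, -1.44 to 2.21 for S100a6, -0.48 to 0.52 for S100a16, -0.98 to 2.86 for Anxa2, -2.47 to 0.45 for Tlr4, and -0.080 to 0.095 for the log2 difference of S100b per Mbp and -0.042 to 0.154 for that per summed oligodendrocyte markers. The cause of these turns was not tested. With a mean of at least 50, S100a4, S100a10, S100a11 and Anxa2 were not tested, nor was S100a4 without CNO 2 or S100a10 without saline 3 or saline 5. No paired analysis was possible because the groups share only 1 replicate number. Depth limits the low members, above all in CNO 1, where a floor of 3 reads was 12.7 normalized counts.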
